A study of Mus musculus with 6 samples.

Results

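Gapdh, Eef1a1 and Eef2 are genes that nearly every mouse cell uses, and all 3 were detected in both cell types of this experiment. They were measured by the alignment records whose 5' end lies on the gene's strand within 1000 nt of a fixed window in mm9, the genome build that the submitters' processing notes name. The windows are chr6:125111800-125116500 on the minus strand for Gapdh, chr9:78326200-78329800 on the minus strand for Eef1a1 and chr10:80639300-80645300 on the plus strand for Eef2. Together they held 11813 of 1209744 records, 7764 from mouse embryonic stem cells (mES) and 4049 from mouse embryonic fibroblasts (mEF). For comparison, joining all records whose 5' ends lie at most 500 nt apart on a strand gave 29069 loci in the whole data set. No record of the 3 genes fell into the 1000-nt margins, and no record lay on the opposite strand.

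In Hi-SCL, each cell is lysed in a drop and its RNA is labeled by barcoded primers that anneal to the poly(A) tail, so reads come from the 3' ends of transcripts. The mES cells were of line V6.5 and grew with LIF, and the mEF cells were a purchased line whose listed medium had the same base and serum without LIF. The labels list no other treatment beyond a reducing agent, BME, in the mES medium alone, so cell type and medium cannot be told apart. All 6 libraries carry both cell types in their labels. The deposited records form 1 aggregate per cell type, in which no read is tied to a barcode or a labelled library, so there is no replicate and no test between cell types. The study's text treats the cell type of each cell as known apart from its clustering by expression, and how barcodes were sorted into the deposited aggregates is not given in the sources used here. In such pools, more cells of a type that contribute and more RNA per cell cannot be told apart for any gene.

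Gapdh encodes glyceraldehyde-3-phosphate dehydrogenase, which oxidizes glyceraldehyde 3-phosphate in glycolysis and passes the electrons to NAD+. Eef1a1 encodes eEF1A1, the GTPase that carries aminoacyl-tRNAs to the ribosome, and Eef2 encodes eEF2, the GTPase that moves tRNAs and mRNA along the ribosome after each peptide bond. Gapdh and Eef1a1 are also known for many processed pseudogenes, copies of their mRNA without introns, so a short read of either may align in several places.

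Some records were aligned across a gap, and these show what a processed pseudogene lacks. The sequences below are the coding joins of annotated transcripts that such records crossed, shown because the gap of each equals the length of an annotated intron. Lower case marks the last 30 bases of one exon and capitals the first 30 bases of the next.
Gapdh, intron 5: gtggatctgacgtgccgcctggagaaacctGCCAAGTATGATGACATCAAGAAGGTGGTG
Gapdh, intron 6: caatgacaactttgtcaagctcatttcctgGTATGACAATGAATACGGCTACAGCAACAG
Eef1a1, intron 2: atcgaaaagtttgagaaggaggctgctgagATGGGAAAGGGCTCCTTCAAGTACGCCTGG
Eef1a1, intron 6: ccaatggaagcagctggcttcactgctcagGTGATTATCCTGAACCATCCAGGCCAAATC
Eef1a1, intron 7: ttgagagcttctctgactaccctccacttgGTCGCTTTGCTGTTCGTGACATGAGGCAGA
Eef2, intron 5: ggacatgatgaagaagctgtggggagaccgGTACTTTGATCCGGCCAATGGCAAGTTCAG

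They come from the principal CCDS transcript of each gene in GENCODE M21, the one with the lowest name where there were several, with introns numbered from the 5' end. GENCODE M21 describes GRCm38, not mm9, so lengths alone were taken from it. A gap was the aligned span minus the read length, 35 nt in runs 1 and 2 and 45 nt in run 3. Here a run is all records whose read names share a first field, which names the sequencer. Separate sequencing runs on the same sequencer were not told apart.

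Every gap found in the 3 genes had the length of an annotated intron. Gapdh had 125 records with a gap of 110 nt, the length of its intron 6, and 8 records with a gap of 84 nt, the length of its intron 5. Of the 125, 105 were from mES and 20 from mEF. None of these 133 Gapdh records had the highest mapping score. Each of the 125 reads over intron 6 also had at least 1 other placement, and all of these placements were without a gap. The 8 reads over intron 5, all from mEF, had 8 other placements, again all without a gap.

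Eef1a1 had 4 kinds of gap. The 60 records over the 90-nt intron 2 were all from mES and all at 1 position, and the 22 over the 85-nt intron 6 were from mES in 20 cases and from mEF in 2. These reads had 60 and 22 other placements, none of them with a gap. The 16 records over the 99-nt intron 7, all from mES at 1 position, and the 27 over the 950-nt intron 1 had no other placement. Eef2 had a single record with a gap, of 86 nt, from mEF. Thus introns 5 and 6 of Gapdh and introns 2 and 6 of Eef1a1 were crossed by reads that also aligned without a gap elsewhere, whereas introns 1 and 7 of Eef1a1 were crossed by reads with a single placement.

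**Figure D1:**
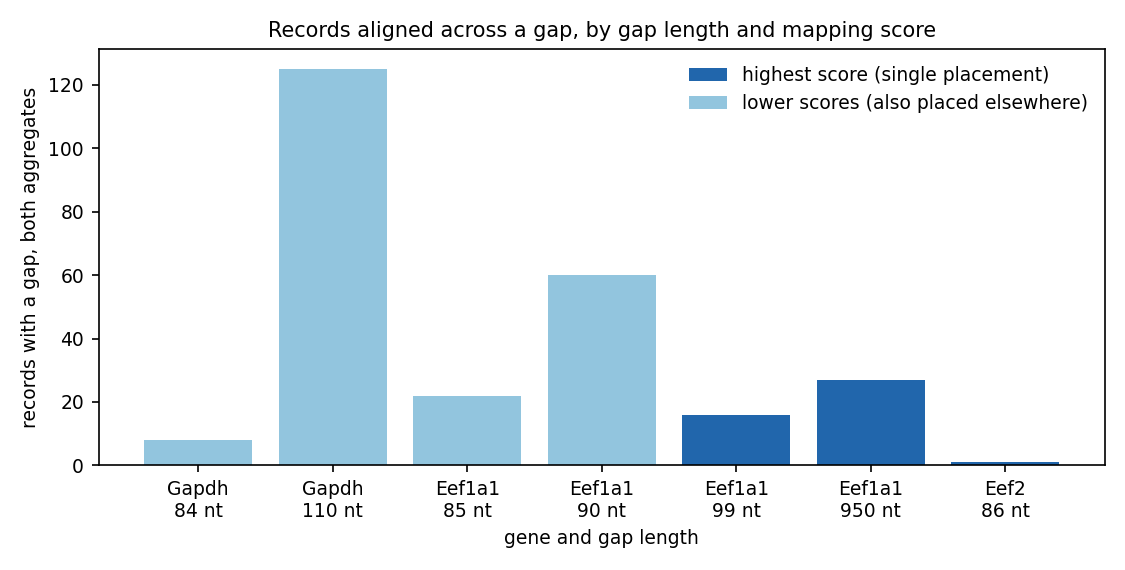
Number of records aligned across a gap (vertical axis, both aggregates summed) for each gene and gap length in nt, split by mapping score. All 133 gapped Gapdh records and the 82 of Eef1a1 with gaps of 85 and 90 nt have lower scores, while the 43 of Eef1a1 with gaps of 99 and 950 nt and the single Eef2 record have the highest score.

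Gapped records made up 4.76% of the mES records of Gapdh (95% exact binomial interval 3.91 to 5.73) and 8.09% of its mEF records (5.44 to 11.5). For Eef1a1 these were 2.49% (2.06 to 2.98) and 0.310% (0.149 to 0.570). Over all records of the aggregates, 4.92% in mES and 5.60% in mEF were gapped. The Eef1a1 difference between cell types rests on few positions, as 60 of the 115 gapped mES records share 1 position. So does the Gapdh share in mEF, with 20 gapped records at 1 position and 8 at another. All intervals given here cover counting error alone, because there is 1 pool per cell type. They take each record as independent, so they are too narrow where PCR copies of a molecule are counted again.

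The mapping score separates the 3 genes. It takes 4 values, and within these windows a score of 3 went with 2 placements, 1 with 3 or 4 placements and 0 with 5 or more, while the highest of the 4 marks a single placement. Of the Gapdh records, 658 of 2207 in mES had the highest score, or 29.8% (27.9 to 31.8), and 90 of 346 in mEF, or 26.0% (21.5 to 31.0). For Eef1a1 these were 2330 of 4625, or 50.4% (48.9 to 51.8), and 2142 of 3222, or 66.5% (64.8 to 68.1). For Eef2 they were 931 of 932 and 481 of 481. Over all records, 77.9% in mES and 77.8% in mEF had the highest score, so Eef2 lay above that share and Gapdh and Eef1a1 below it in both cell types. Over all runs, the share at Eef1a1 differed between cell types by more than the intervals, and the intervals at Gapdh overlapped. In run 3, the Eef1a1 shares were 62.6% in mES (53.4 to 71.2) and 60.5% in mEF (48.6 to 71.6), with intervals that overlap, so the difference was seen in runs 1 and 2.

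The reads of lower score were followed to their other placements. In Gapdh, 1805 reads had between 2 and 6 placements, with a median of 3, and the other placements fell into 10 loci on 6 chromosomes. A single locus, chr11:26687095-26687786 on the plus strand, was a placement of 1702 of the 1805 reads, or 94.3%. Of all 1463 mES records at that locus, 1459 were reads also placed in Gapdh, and 4 had the highest score. The next were chr1:182257140-182257841 with 566 reads and chr1:13776008-13776356 with 433 reads, and neither held a record of the highest score. In these data, the Gapdh gene and the chromosome 11 locus shared nearly all records of that locus.

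In Eef1a1, 3370 reads of lower score had between 2 and 13 placements, with a median of 2, and the other placements fell into 28 loci on 17 chromosomes. The leading locus was chr17:79249885-79250517 on the minus strand, with 2205 reads or 65.4%, followed by chr5:98904607-98904728 with 979 reads and chr1:11289675-11289758 with 560 reads. The mES records at the leading locus numbered 1502, of which 1497 were reads also placed in Eef1a1. In mEF they numbered 727, of which 708 were such reads and 18 had the highest score. The only Eef2 read of lower score had 1 other placement, on chromosome 4. At the leading loci of Gapdh and Eef1a1, all 1702 and all 2205 of these placements were without a gap.

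**Figure D2:**
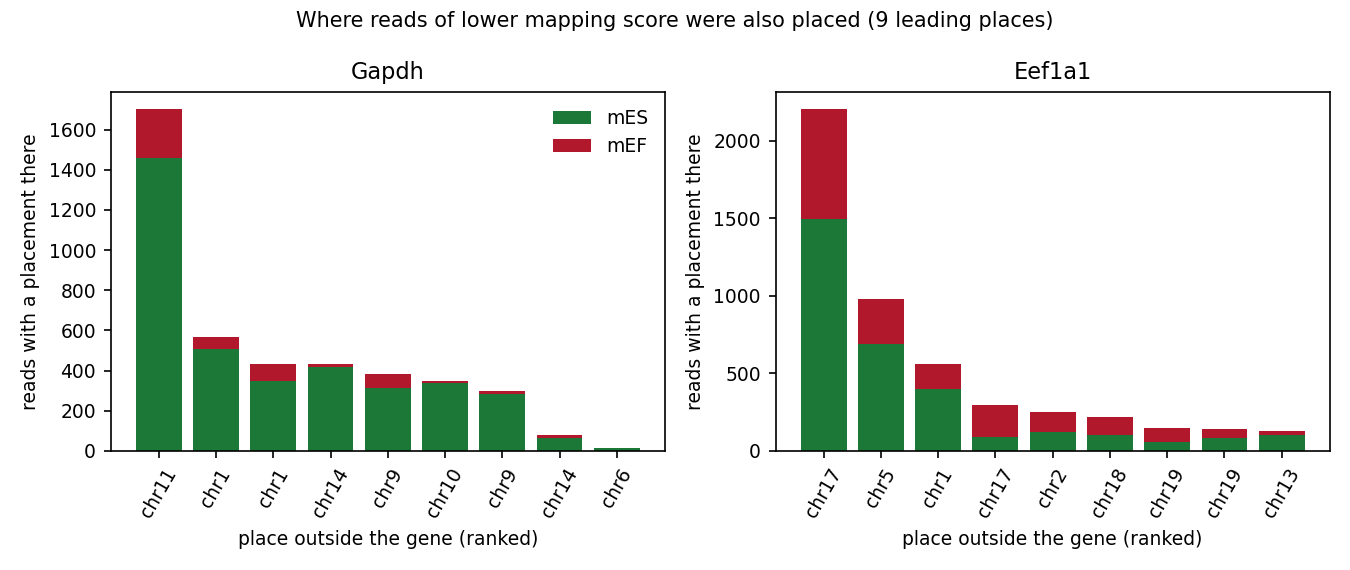
Number of reads of lower mapping score (vertical axis) that also have a placement at each of the 9 leading loci outside the gene, ranked from left and labelled by chromosome, with mES and mEF stacked. For Gapdh, 1702 of 1805 reads share the chromosome 11 locus, and for Eef1a1, 2205 of 3370 share the leading chromosome 17 locus.

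With the highest score only, and scaled by all records, Gapdh was higher in mES, Eef1a1 was higher in mEF and Eef2 was close to equal. Levels are in CPM, the number of records among each 1000000 of the aggregate at any score. Gapdh had 876 CPM in mES (95% exact Poisson interval 811 to 946) and 196 CPM in mEF (158 to 241), which is 4.47-fold higher in mES (95% exact interval of the ratio 3.58 to 5.64). Eef1a1 had 3104 CPM in mES (2979 to 3232) and 4667 CPM in mEF (4471 to 4869), which is 1.50-fold higher in mEF (1.42 to 1.60). Eef2 had 1240 CPM in mES (1162 to 1322) and 1048 CPM in mEF (956 to 1146), which is 1.18-fold higher in mES (1.06 to 1.32). The order of the levels across cell types is thus opposite for Gapdh and Eef1a1. The sizes depend on the scaling. With median-of-ratios scaling, the log2 ratios of mES to mEF were 2.61 for Gapdh, -0.14 for Eef1a1 and 0.69 for Eef2.

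Gapdh was the only member past 2-fold, at the highest score and with all scores. Of the 3455 loci with at least 50 records of the highest score, 37.9% passed 2-fold toward mES and 35.7% toward mEF, 73.6% in all. Only 447 of these loci also had at least 5 distinct 5' positions in each aggregate, a minimum chosen after the data were seen. Of these, 9.4% passed 2-fold toward mES and 30.9% toward mEF, 40.3% in all. Their log2 ratio of mES to mEF had a median of -0.39 and quartiles of -1.22 and 0.28. The ratios of Eef1a1, at -0.59, and Eef2, at 0.24, lay between these quartiles, and that of Gapdh, at 2.16, above them. With all scores, 39.3% of 4321 loci passed 2-fold toward mES and 35% toward mEF, 74.2% in all. Of the 600 with at least 5 positions in each aggregate, 14.5% passed toward mES and 27.8% toward mEF, 42.3% in all. All 3 members had at least 5 positions in each aggregate, Gapdh with 6 in mEF. That minimum removes loci that are low in an aggregate, and mEF held fewer distinct positions, 25252 against 53947 in mES. The 9.4% toward mES therefore depends on this minimum, and 37.9% is the share without it. With 3 genes, nothing more is read from a count of 1.

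The records of lower score changed the picture for Eef1a1. They gave 3057 CPM in mES and 2353 CPM in mEF, 1.30-fold higher in mES (1.21 to 1.40), where the records of the highest score were higher in mEF. With all scores together, Eef1a1 had 6161 CPM in mES and 7020 CPM in mEF, 1.14-fold higher in mEF (1.09 to 1.19). For Gapdh, the lower scores gave 2063 CPM in mES and 558 CPM in mEF, 3.70-fold higher in mES (3.24 to 4.24), and all scores gave 2940 and 754 CPM. Over all runs, the Gapdh difference in records had the same direction in both classes of score, and that of Eef1a1 did not. In run 3, the lower scores of Eef1a1 gave 423 CPM in mES (310 to 564) and 1011 CPM in mEF (682 to 1443), higher in mEF as at the highest score. Those of Gapdh gave 285 and 303 CPM there, from 31 and 9 records, with intervals that overlap. In distinct positions, the lower scores of Eef1a1 had 87 in mES and 51 in mEF. These are unscaled counts, and the aggregates held 53947 and 25252 distinct positions at any score. Relative to those totals the share was larger in mEF, unlike the records, and no interval was computed for it.

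The levels were then read within each run, defined above by the sequencer in the read name. In run 1 the Gapdh level at the highest score was 940 CPM in mES and 170 CPM in mEF, and in run 2 it was 1052 and 199.4 CPM. In run 3 it was 294 CPM in mES (201.2 to 415) and 438 CPM in mEF (233 to 749), so the order turned. The intervals overlap and rest on only 32 and 13 records, and 12 of the 13 mEF records stood at 1 position, chr6:125112042. At that position, the shorter mES reads of runs 1 and 2 had lower scores. At the highest score stood 50.8% of mES and 59.1% of mEF Gapdh records in run 3, against 28.8% and 23.7% in run 1. An effect of read length on the order was not tested. For Eef1a1 the mES and mEF levels were 3480 and 4838 CPM in run 1, 3574 and 4978 CPM in run 2, and 708 and 1550 CPM in run 3. The mEF level was above the mES level in all 3 runs. For Eef2 they were 1453 and 1014 CPM in run 1, 1239 and 1137 CPM in run 2, and 386 CPM (278 to 522) and 977 CPM (654 to 1403) in run 3. The Eef2 order was therefore opposite in runs 1 and 3, beyond the intervals of each, and within the intervals in run 2. Run 3 rests on 42 mES records at 11 positions, 4 of them second copies, and on 29 mEF records at 7 positions. Of those 29, 12 stood at chr10:80645094 and 8 at chr10:80645136, so the run 3 intervals may be too narrow.

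**Figure D3:**
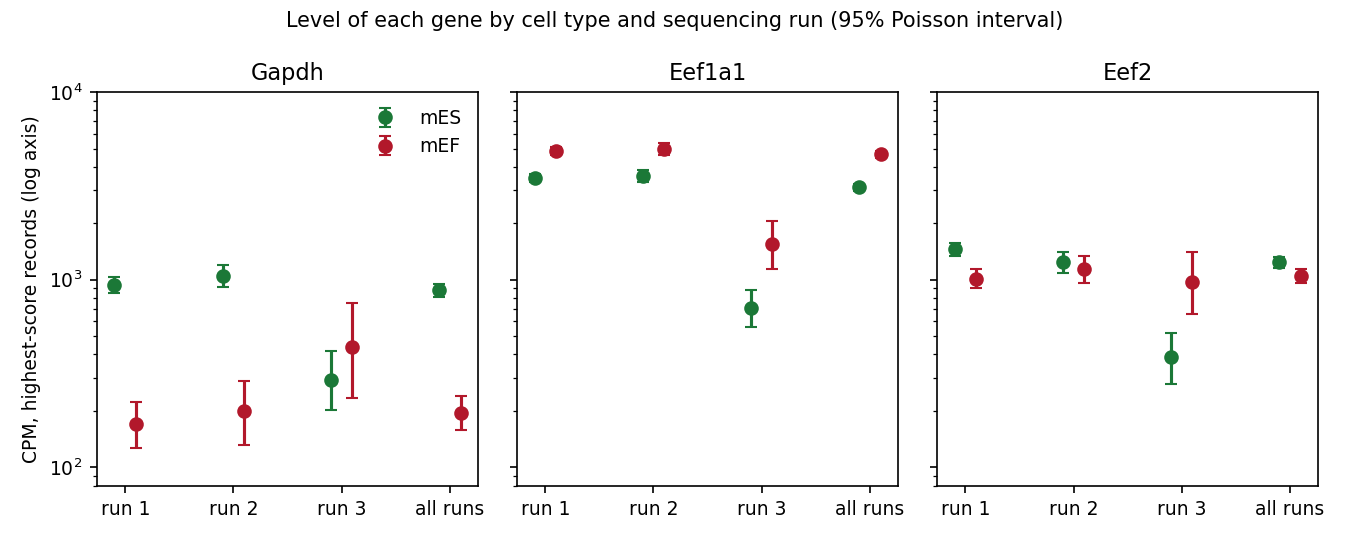
Level in CPM on a log axis at the highest mapping score for Gapdh, Eef1a1 and Eef2 in each run and in all runs together. A run is the records whose read names share a sequencer. Shown are mES in green, mEF in red and bars for the 95% exact Poisson interval. Gapdh is at 940 and 170 CPM in run 1 but at 294 and 438 CPM in run 3, while Eef1a1 is higher in mEF in each run.

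All 3 mES levels were lower in run 3 than in runs 1 and 2. In that run, 1 locus held 32.0% of mES and 28.0% of mEF records, against 1.55% and 0.556% in run 1. Over all runs it held 5.96% of mES and 2.33% of mEF records. Without that locus in the totals, the log2 ratios over all runs were 2.21 for Gapdh, -0.53 for Eef1a1 and 0.30 for Eef2. The run 3 levels without it were not computed. Run 3 also held 24108 mES and 2529 mEF second copies, records that repeat a read at the same place, against 0 in runs 1 and 2. Runs 1 and 2 are not independent of each other. In Gapdh, all 13 mES positions of run 2 were also in run 1, and in mEF all 4. In Eef1a1, 71 of 75 mES positions and 55 of 56 mEF positions of run 2 were in run 1. Run 3 shared fewer positions with the other runs, 2 of 6 for Gapdh, 6 of 18 for Eef1a1 and 5 of 11 for Eef2 in mES.

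Counting distinct 5' positions leaves out copies, but it also merges separate molecules that begin at the same base. Gapdh had 17 positions of the highest score in mES and 6 in mEF. Relative to the 53947 and 25252 distinct positions of each aggregate at any score, this is 1.33-fold higher in mES, with an interval of 0.499 to 4.11 that includes equal levels. Eef1a1 had 96 positions in mES and 64 in mEF, 1.42-fold higher in mEF (1.02 to 1.97), and Eef2 had 54 and 25, a ratio of 1.01 (0.618 to 1.70). In positions, the interval of Gapdh thus includes equality. The Gapdh positions lay within 68 nt, which limits how many can be counted, so this ratio is not set against the 4.47-fold seen in records. The interval of Eef1a1 stays on the mEF side and that of Eef2 includes equality.

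**Figure D4:**
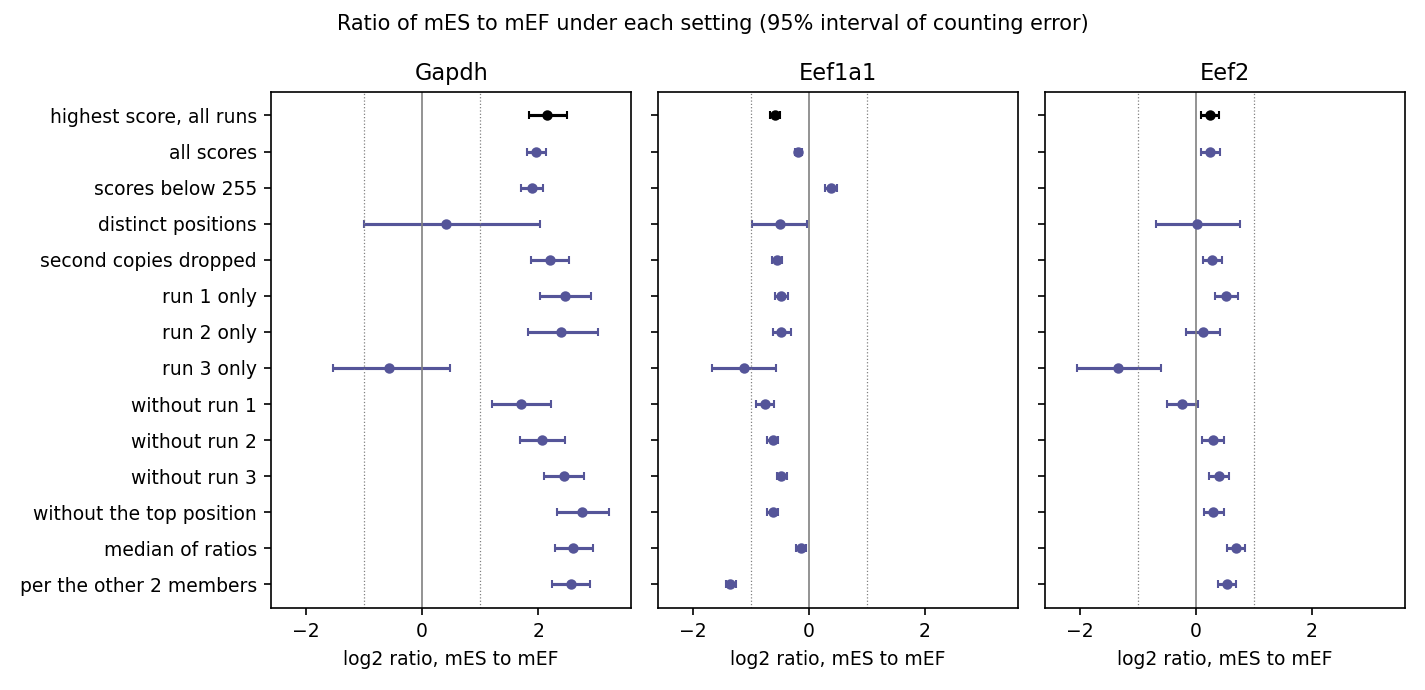
Log2 ratio of mES to mEF for each gene (horizontal axis) under each setting (rows), with bars for the 95% interval of counting error, a solid line at equality and dotted lines at 2-fold. Gapdh is at 2.16 with the highest score and all runs, at 0.41 in distinct positions and at -0.57 in run 3 only. Among the settings drawn, Eef1a1 is above 0 only with the lower scores.

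The records behind the Gapdh difference stood at few places. In mEF, 44 of the 90 records of the highest score, 48.9%, were at 1 position, chr6:125111986, where mES had 83 records. In mES, the position with most records was chr6:125111999 with 148 of 658, or 22.5%, and mEF had none there. The third leading position, chr6:125111982, had 72 mES and 8 mEF records. Leaving out the leading position of each aggregate from that aggregate alone gave 6.78-fold higher in mES, and leaving out both positions from both aggregates gave 5.68-fold, from 427 and 46 records. The mES and mEF positions of Gapdh shared 3, or 17.6% of the mES positions and 50.0% of the mEF positions. These 3 held 179 mES and 65 mEF records, 1.68-fold higher in mES (1.26 to 2.27). Keeping shared positions leaves 3 of 17 mES and 3 of 6 mEF positions, so it removes more from the aggregate with more positions. In all 3 genes the log2 ratio moved nearer to equality under this setting, to 0.75 for Gapdh, -0.38 for Eef1a1 and -0.09 for Eef2. Where the Gapdh difference arose is therefore not read from it.

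The positions of the elongation factor genes were more numerous. In Eef1a1 the leading positions were chr9:78326499 with 173 mES and 99 mEF records, chr9:78326446 with 175 and 87, and chr9:78326508 with 104 and 74, so each of them held records of both cell types. The cell types shared 31 positions, 32.3% of the mES and 48.4% of the mEF positions, and these held 1236 mES and 983 mEF records. In Eef2 the leading positions were chr10:80645108 with 89 mES records and no mEF record, chr10:80645060 with 64 mEF records and no mES record, and chr10:80645046 with 57 and 6. Eef2 shared 9 positions, or 16.7% of the mES and 36.0% of the mEF positions. Both cell types thus had most Eef2 records in the same 3' region, with most positions seen in a single cell type. No such share was computed over all loci, so these counts are not read as a trait of any of the 3 genes. Within mES alone, 5 of the 11 run 3 positions of Eef2 were also in run 1 or 2.

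The records lay near the 3' end of each gene. All 748 Gapdh records of the highest score, from both cell types, had 5' ends within a stretch of 68 nt. The gapped records place the last exon join in the coordinates of the files to within 1 nt, and with the annotated last exon of 248 nt this puts the stretch from 103 to 171 nt before the annotated transcript end. Closer to the end, within 100 nt, 355 mES and 50 mEF records lay, and none had the highest score. At 200 nt or more from the end, none of the 909 mES and 162 mEF records had it either. Singly placed Gapdh reads thus began in a narrow part of its last exon, and reads that began nearer to or farther from the end also aligned elsewhere.

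Eef1a1 had singly placed records over a longer stretch. With the join over intron 7 placed to within 18 nt and an annotated last exon of 410 nt, 87.9% of its records of the highest score started in the last exon. Their median distance from the annotated end was between 238 and 256 nt in mES and between 188 and 206 nt in mEF. With the annotated end set at the middle of its 18-nt range, from 100 nt up to but not including 200 nt before it lay 32.2% of all mES records and 43.1% of all mEF records, of which 54.5% and 74.6% had the highest score. The highest-score record nearest to the end lay between 94 and 112 nt from it. With the end so placed, the share of the highest score was lower in mES than in mEF in each of the 3 zones from 100 nt on. For Eef2, 79.7% of the mES and 84.8% of the mEF records of the highest score fell into chr10:80644998-80645197.

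**Figure D5:**
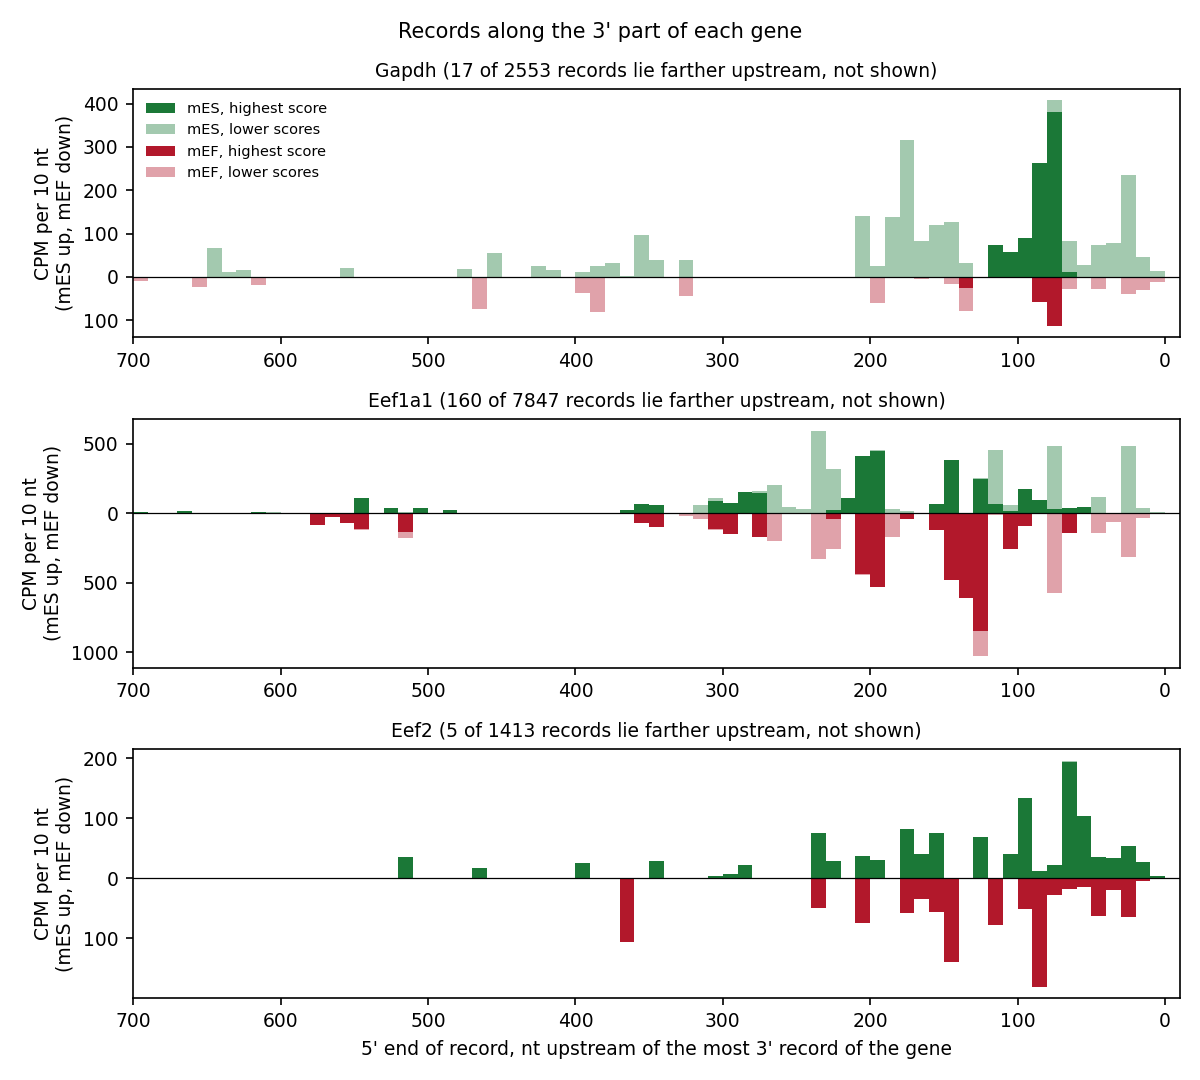
Records along the 3' part of each gene, in CPM per 10 nt (vertical axis, mES upward and mEF downward) against the distance in nt of the 5' end from the most 3' record of the gene (horizontal axis). Dark bars are the highest mapping score and pale bars lower scores. Dark bars of Gapdh stand within 68 nt with pale bars on both sides, Eef1a1 mixes both kinds, and Eef2 is dark throughout apart from 1 record.

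A small group of Eef1a1 records began at the other end of the gene. The 27 records over the 950-nt intron 1, 19 from mES and 8 from mEF, all had the highest score, and no Eef1a1 record of either cell type started farther upstream. Of these, 17 started at chr9:78329474 and 5 at chr9:78329475, or 81.5% at this pair of adjacent positions, with 15 from mES and 7 from mEF. All 3 runs held such gapped records. From the reads' lengths and gaps, a record that starts at the first of these positions holds between 17 and 33 bases of exon 1. The annotated exon 1 has 86 bases, so, if it ends at the same base, these records start between its bases 54 and 70. The most upstream position, chr9:78329477, had 2 mES records and no mEF record. Most records over intron 1, in both cell types, thus began at this pair of positions, inside the annotated first exon.

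The annotated start region is shown because those 5' ends fall past its last base. It is the RefSeq window from 250 bases before to 50 after the annotated start of Eef1a1, at chr9:78481675-78481974 on the minus strand of GRCm38.p6, in lower case with a TATATAA motif in capitals.
Eef1a1: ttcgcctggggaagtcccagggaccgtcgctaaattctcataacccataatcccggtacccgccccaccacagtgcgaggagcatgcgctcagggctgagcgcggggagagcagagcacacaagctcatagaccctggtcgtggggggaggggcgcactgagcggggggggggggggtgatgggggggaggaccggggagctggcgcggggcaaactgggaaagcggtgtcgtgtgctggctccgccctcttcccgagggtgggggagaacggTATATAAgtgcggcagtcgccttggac

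TATA motifs are known to lie a short way upstream of the start of many strongly transcribed genes. TATATAA and TATAAA were searched on both strands. TATATAA occurred once, on the gene's strand, at bases 24 to 30 after the annotated start, and TATAAA did not occur. The first base of the motif lies between 30 and 46 bases upstream of position chr9:78329474, where most of the upstream reads began. Of the 32851 RefSeq windows of this length, 3.24% held TATATAA on either strand and 13.6% held TATAAA. The match is a description of the letters in this window.

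Outside the 3 genes, the loci with the most similar levels were found over the 6 combinations of cell type and run, among 3452 loci with at least 50 records of the highest score. Likeness was the mean absolute difference of log2(CPM + 1), and loci are given by position since no annotation of mm9 was used. Nearest to Gapdh was chr17:33783236-33783570 on the minus strand, at 0.45, with 518 CPM in mES and 170 CPM in mEF, followed by chr10:127513317-127514250 on the plus strand, at 0.64. Nearest to Eef1a1 were chr10:127985205-127986192, at 0.36, with 4765 CPM in mES and 5362 CPM in mEF, and chr9:61761136-61762346, at 0.49. Nearest to Eef2 were chr3:85941912-85943160, at 0.30, with 1471 and 1431 CPM, and chr10:23505033-23505805, at 0.32. The first-ranked locus of Gapdh was thus less near than the first-ranked loci of Eef1a1 and Eef2.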

How the data were processed

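The labels and the study's methods say that the authors read a barcode from one end of each fragment and aligned the other end with TopHat (build mm9 in the submitters' processing notes; version not given in the sources used here). How barcodes were assigned to the deposited mES and mEF lists is not given there. The deposited alignment lists hold position, strand, read name and the aligner's mapping score, with no barcode and no sequence. The mES list held 750739 records from 612194 reads, and the mEF list 459005 from 387359. A count of 3 was 4.00 and 6.54 CPM.

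Windows were padded by 1000 nt. Positions are 1-based, and a minus-strand record was placed by its last base. Main values use records of the highest score per 1000000 records of all scores, as deposited. Poisson and conditional binomial intervals are exact at 95%. No p-value is given. The members and lists were chosen with earlier results of these data known. The text names the 3 members, the 3 leading positions per gene, the 3 leading other loci of lower-score reads and the 2 nearest loci per gene. GENCODE M21 describes GRCm38, so only lengths and transcript sequences were used, and glycolysis, elongation and cell type marker genes, and with them the labelled cell types, were not analysed here. Alternatives numbered 15, with 6 more chosen after seeing the data. The fold step was tested on simulated Poisson counts with large changes built into 200 loci. Those counts held no copies of molecules, so this is a check of the code and not of the 2-fold calls in these data. Python 3.11.15, numpy 2.4.6, pandas 2.3.3, scipy 1.17.1 and matplotlib 3.10.9 were used.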

Additional observations from a re-analysis of the deposited data

Results flagged for a closer look

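For Gapdh, the log2 of the mES level over the mEF level was -0.57 in run 3, against 2.47 in run 1 and 2.40 in run 2, so mEF was higher in run 3 and mES in the others. For Eef2 it was -1.34 in run 3, against 0.52 in run 1 and 0.12 in run 2. The difference between runs was not tested. Run 3 rests on 32 mES and 13 mEF records of Gapdh and on 42 and 29 of Eef2. Of the 13 mEF records of Gapdh, 12 stood at 1 position. Of the 29 mEF records of Eef2, 12 stood at 1 position and 8 at another. Runs 1 and 2 share most positions and are not independent of each other.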

How the results depend on the processing

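The log2 ratios of mES to mEF, 2.16 for Gapdh, -0.59 for Eef1a1 and 0.24 for Eef2, were recomputed under 21 settings, of which leaving out run 1, run 2, the leading positions (in 2 ways) or the largest locus and using shared positions only were added after seeing the data. Padding, both strands, second copies dropped, the total of highest-score records, the total without the mitochondrial chromosome or without the largest locus, and leaving out run 2 kept each ratio within its main interval. The Gapdh ratio turned to -0.57 in run 3 only. It was 0.41 in distinct positions, 2.61 with median-of-ratios scaling, 2.56 per the other 2 members, 1.70 without run 1, 2.76 without each aggregate's own leading position, 2.50 without both leading positions in both aggregates and 0.75 at shared positions only. The Eef1a1 ratio was -0.19 with all scores, 0.38 with lower scores only, -0.48 in run 1 only, in run 2 only and without run 3, -1.13 in run 3 only, -0.14 with median-of-ratios scaling, -1.36 per the other 2 members, -0.76 without run 1 and -0.38 at shared positions only. The Eef2 ratio was 0.02 in distinct positions, 0.52 in run 1 only, -1.34 in run 3 only, 0.69 with median-of-ratios scaling, 0.53 per the other 2 members, -0.24 without run 1 and -0.09 at shared positions only. Lower scores alone gave no Eef2 ratio, with 1 record in mES and none in mEF. Median-of-ratios scaling moved all 3 ratios toward mES alike. The causes were not tested. Few positions, 6 for Gapdh in mEF, limit what can be said of that gene, and so do the few records of run 3.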
